A study of Mus musculus with 20 samples.

Results

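H3K27ac, a histone mark of active promoters and enhancers, was examined at the collagen genes outside the main fibrillar set in developing mouse face. The members were all protein-coding genes of GENCODE vM21 whose symbol is Col, a number, a and a number, without Col1a1, Col1a2, Col3a1, Col5a1, Col5a2, Col2a1, Col9a1 and Col11a1. This gave 36 of 21938 protein-coding genes. A peak belonged to a gene if it overlapped the gene, or if that gene had the nearest transcription start site within 100 kb. By this rule 30 of the 36 members had a peak in at least 1 library, against 14860 of all protein-coding genes. The rule itself uses gene names and no measured value.

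Collagens are trimeric proteins of the extracellular matrix whose chains wind around each other in a triple helix. The fibrillar types form the bulk fibres of skin, bone and tendon, and most genes described here encode the other types. Type IV builds the network of basement membranes, type VI forms beaded filaments close to cells, types VIII and X form short-chain networks, and the fibril-associated types sit on the surface of fibrils. Types XIII, XVII, XXIII and XXV span the cell membrane, and types XV and XVIII are proteoglycans of basement membrane zones. The set also includes minor fibrillar chains. In the embryonic face these matrices surround neural crest mesenchyme, blood vessels, epithelium and the cartilage that forms the nasal capsule and Meckel's cartilage.

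The peak lists came from wild-type (WT) embryos, with mixed cells of dissected face tissue. The 4 tissues of e11.5 were the mandibular and maxillary processes and the medial and lateral nasal plates. At e13.5, and again at e15.5, 3 tissues were used, both jaw processes and the nose. Each region had 1 library per stage, so the spread within a stage is a spread between regions, and a sample's error could not be measured apart from it. Labels and deposited peak names disagree on the region of each e15.5 library, and the labels are used here. The library labelled mandibular has peaks named for the nose, the one labelled maxillary has peaks named for the mandible, and the one labelled nose has peaks named for the maxilla. They entered comparisons of stage as a set and were left out of the main comparison of regions.

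The lists held between 6571 peaks (e11.5 maxillary) and 25941 peaks (e13.5 nose) on chromosomes 1 to 19, X and Y, covering 10.5 to 49.4 Mb. Reads behind each list were not known, so a missing peak is not a measure of absent acetylation. Levels are therefore given in ppm, the base pairs of peaks assigned to a gene for each 1000000 base pairs of peaks in that library. Of 5 facial mesenchyme markers, Msx1, Prrx1, Twist1 and Pdgfra had a peak in all 10 libraries, and Dlx5 had one in 7. The summed level of 5 liver markers was at most 29 ppm in any library and that of 5 neuron markers at most 54.9. In mixed tissue, fewer cells that carry the mark and less acetylation in each cell cannot be told apart.

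The members together held between 3546 (e13.5 maxillary) and 5345 (e13.5 nose) ppm. Longer lists had peaks at more of them. There were 15, 11, 22 and 25 members with a peak at e11.5 in the mandibular, maxillary, medial nasal and lateral nasal libraries. At e13.5 there were 15 in the mandibular, 13 in the maxillary and 28 in the nose library, and at e15.5 there were 23, 21 and 17 for the mandibular, maxillary and nose labels. In the same orders, the e11.5 shares of members were 41.7%, 30.6%, 61.1% and 69.4%, against 31%, 25.4%, 52.6% and 53.5% of all genes. The e13.5 shares were 41.7%, 36.1% and 77.8% against 28.4%, 44.6% and 59.6%. The e15.5 shares were 63.9%, 58.3% and 47.2% against 53.4%, 48.4% and 29.8%. Only in the e13.5 maxillary library was the share of members the lower one. Every peak that overlaps a gene counts for it, and members ranged from 7105 bp (Col10a1) to 468377 bp (Col25a1) in length. Neither these shares nor the later comparisons of members with all genes were matched for gene length. The part of gene length in them was not tested. The level was concentrated in few genes, led by Col26a1, Col6a3, Col6a2, Col6a1, Col4a1, Col4a2 and Col23a1, all with peaks in all 10 libraries.

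**Figure D1:**
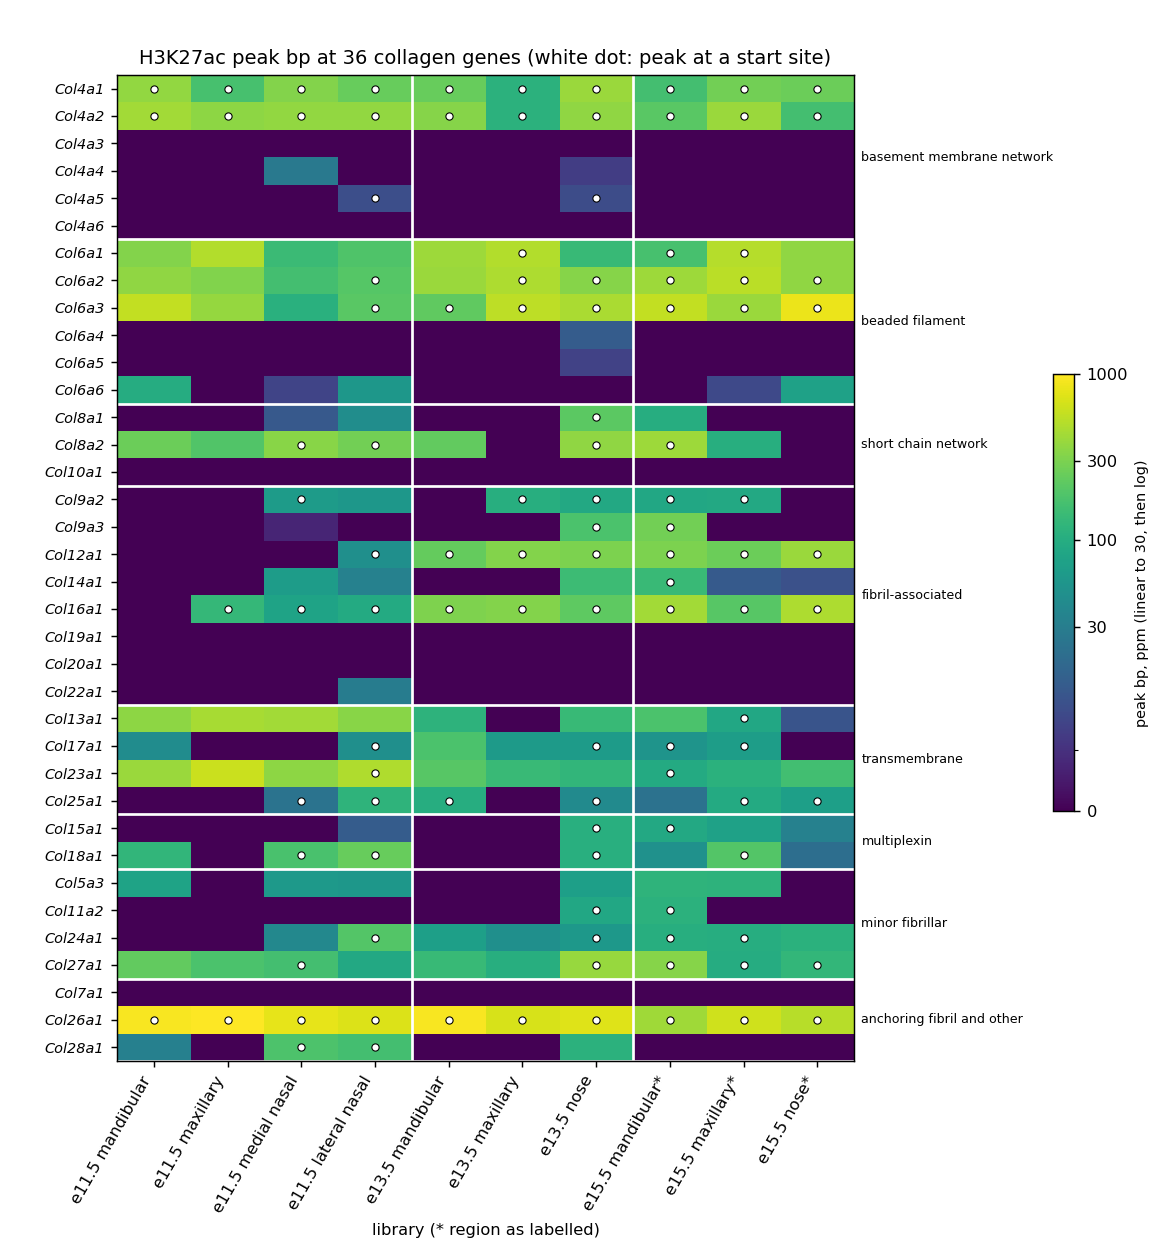
Peak bp (ppm) at the 36 collagen genes (rows, grouped by class) in the 10 libraries (columns, by stage), with a colour scale that is linear to 30 and logarithmic above; a white dot marks a peak within 1 kb of a start site. Col26a1, with 421 to 980 ppm, is bright in every library, Col12a1 and Col16a1 are brighter after e11.5, and Col13a1 and Col23a1 are darker.

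The 6 members with no peak in any library were Col4a3 and Col4a6, chains of specialised basement membranes, Col7a1, the anchoring fibril of skin, Col10a1, the collagen of hypertrophic cartilage, and the fibril-associated Col19a1 and Col20a1. Others had a peak in few libraries. Col22a1, a chain of tissue junctions, had a peak only in the lateral nasal plate (29.8 ppm). Col6a4 (20.6) and Col6a5 (14) had a peak only in the e13.5 nose. Col4a4 was present in the medial nasal plate (28.7) and the e13.5 nose (12.8), and Col4a5 in the lateral plate (17.2) and the e13.5 nose (16.5). All of these values came from the 3 longest lists, which held at least 20492 peaks.

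The first question was how acetylation at these genes differed between the first and the last stage. Col12a1, Col15a1 and Col16a1 were higher in each e15.5 library than in any e11.5 library, and Col13a1, Col23a1 and Col26a1 were lower in each e15.5 library than in any e11.5 library. That is 3 of 30 members (10%) higher, against 4.66% of the 14860 genes with a peak, and 3 of 30 (10%) lower, against 3.32%. The median difference between e15.5 and e11.5 was 17.8 ppm over the 30 members and 0.336 over all genes with a peak, not matched for gene length. With 7 libraries there are 35 assignments of stage, so the smallest two-sided exact permutation p of a single gene is 0.0286, which all 6 reached. After Benjamini-Hochberg adjustment over all genes with a peak each had an adjusted p of 0.578 by this exact permutation test. The count of members higher at e15.5 depended on 2 libraries, being 5 without the e11.5 mandibular library and 7 without the e15.5 library labelled nose, where 5.93% and 13.9% of all genes were higher.

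Across all 3 stages, no gene passed an exact permutation test of the slope over embryonic day, with adjustment over all genes. Members called were 0 of 30, against 0% of 14860 genes, and the smallest adjusted p among members was 0.31. The limma test on log2(ppm + 1) also called 0 genes, with a smallest adjusted p of 0.175, which Col12a1 had. With no adjustment, 6 of 30 members (20%) and 1204 genes (8.1%) had an exact permutation p under 0.05, and in limma 8 members and 1214 genes. The 6 members were Col12a1, Col16a1, Col23a1, Col26a1, Col13a1 and Col6a2. In the exact test the 4200 assignments of stage allow a p of 0.000238 at the least. At that p, 71 genes were needed for an adjusted p of 0.05, and 14 genes had it.

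Among the fibril-associated collagens, Col12a1 (chr9:79598991-79718831, minus strand, GRCm38) had nearly no peak at e11.5 and one of the highest levels of the class later. Type XII collagen binds to the surface of type I fibrils in tendon, periosteum and fascia. Col12a1 had no peak in the mandibular, maxillary and medial nasal libraries of e11.5 and 47.6 ppm in the lateral nasal plate. The level was 239, 322 and 303 in the e13.5 mandibular, maxillary and nose libraries, and 300, 256 and 400 at e15.5 for the mandibular, maxillary and nose labels. The e13.5 and e15.5 libraries thus all lay above those of e11.5, with means of 11.9 ± 23.8 at e11.5 (SD, n = 4), 288 ± 43.1 at e13.5 (SD, n = 3) and 319 ± 74 at e15.5 (SD, n = 3). The difference between e15.5 and e11.5 was 307, and the slope was 79.3 ppm a day (exact permutation p = 0.0019, adjusted p = 0.31). The region at its start site (chr9:79713926-79721255) had a peak in the 7 libraries in which Col12a1 had any, and its widest peak reached 6848 bp in the e13.5 maxillary library.

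Col16a1, a fibril-associated collagen of cartilage and skin fibrils (chr4:130047840-130099283, plus strand), had no peak in the e11.5 mandibular library. It had 133 ppm in the e11.5 maxillary, 77.8 in the medial nasal and 95.3 in the lateral nasal library. At e13.5 the levels were 306 (mandibular), 326 (maxillary) and 223 (nose), and at e15.5 they were 427, 206 and 472 for the mandibular, maxillary and nose labels. Each later library was above each early one, and the means were 76.6 ± 56.1 (SD, n = 4), 285 ± 54.6 (SD, n = 3) and 368 ± 142 (SD, n = 3). The slope was 74.3 ppm a day (exact permutation p = 0.00357, adjusted p = 0.31). When only peaks with −log10 q of at least 2 were kept, or when peaks were counted in place of their width, the e15.5 and e11.5 groups overlapped. A start-site peak was present in 9 of the 10 libraries and was wider at later stages. The widest peak at the gene was at most 3203 bp in the e11.5 libraries, 4343 to 7164 bp at e13.5 and 5116 to 8691 bp at e15.5. Because most of this gene's acetylation lay at its start in 8 of these 9 libraries, the 250 bases before the RefSeq start are shown (chr4:130047590-130047839, GRCm38, plus strand), with matches to searched motifs in capitals.
Col16a1 upstream: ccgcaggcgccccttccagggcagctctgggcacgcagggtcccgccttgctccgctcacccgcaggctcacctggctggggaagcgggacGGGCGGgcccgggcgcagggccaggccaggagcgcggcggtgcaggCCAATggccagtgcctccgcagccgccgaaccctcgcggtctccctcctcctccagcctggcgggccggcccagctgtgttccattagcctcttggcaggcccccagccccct
The window is 75.6% G and C and holds 21 CpG. Of 7 motifs searched on both strands it holds GGGCGG and CCAAT, each once and apart from each other. The motifs were GGGCGG (the GC box), CCAAT (bound by NF-Y), TATAAA (the TATA box), TGANTCA (bound by AP-1), TGTGGT (bound by Runx factors), ACAAAG (bound by Sox and TCF/LEF factors) and GGAATG (bound by TEAD factors). Of 32851 RefSeq promoters of the same length, 32.7% hold GGGCGG and 33.8% hold CCAAT. The annotation also has an antisense noncoding gene, Gm12963, in this window, and ChIP-seq carries no strand, so the peak cannot be given to either gene alone. RefSeq promoter entries were matched for 30 of the 36 members, all but Col4a3, Col9a3, Col12a1, Col14a1, Col22a1 and Col26a1.

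The summed level of the 8 fibril-associated genes was 0, 133, 217 and 263 ppm in the e11.5 mandibular, maxillary, medial nasal and lateral nasal libraries. At e13.5 it was 545 (mandibular), 751 (maxillary) and 945 (nose), and at e15.5 it was 1232, 572 and 890 for the mandibular, maxillary and nose labels. Every library after e11.5 lay above every library of e11.5, and the mean was 153 ± 115 at e11.5 (SD, n = 4), 747 ± 200 at e13.5 (SD, n = 3) and 898 ± 330 at e15.5 (SD, n = 3). Col12a1 and Col16a1 held most of it in each library in which the class had a peak, except the medial nasal plate. The sum stayed without overlap between e11.5 and e15.5 under every alternative run for it, though leaving out libraries could not make it overlap. The remaining members of the class were Col9a2, Col9a3 and Col14a1, described with the nasal libraries below, Col22a1, and Col19a1 and Col20a1 without a peak.

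The membrane-spanning collagens had the opposite order. Their summed level was 800, 1077, 807 and 992 ppm in the e11.5 mandibular, maxillary, medial nasal and lateral nasal libraries. It was 607 (mandibular), 203 (maxillary) and 373 (nose) at e13.5, and 355, 362 and 248 at e15.5 for the mandibular, maxillary and nose labels. All later libraries were below all e11.5 libraries, with means of 919 ± 138 (SD, n = 4), 394 ± 203 (SD, n = 3) and 322 ± 63.7 (SD, n = 3). Most of the early sum came from Col23a1 and Col13a1. With peak bp not scaled to the library, or with peaks counted, the e11.5 and e15.5 sums overlapped.

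Col23a1 (chr11:51289920-51583918, plus strand) encodes a membrane collagen whose outer domain can be shed. Its level at e11.5 was 403 (mandibular), 621 (maxillary), 353 (medial nasal) and 482 (lateral nasal) ppm. At e13.5 it was 206, 140 and 127 in the mandibular, maxillary and nose libraries, and at e15.5 it was 95.4, 111 and 159 for the mandibular, maxillary and nose labels. The lowest e11.5 library was above the highest later one, and the means were 465 ± 117 (SD, n = 4), 157 ± 42.4 (SD, n = 3) and 122 ± 33 (SD, n = 3). The slope was -88.7 ppm a day (exact permutation p = 0.00286, adjusted p = 0.31). Leaving out libraries cannot make groups that are apart overlap. The e15.5 and e11.5 groups also stayed apart under every other alternative run, including the one without peaks at start sites of other genes. That alternative matters here because the single region of Col23a1 with a peak in all 10 libraries, at its 3′ end (chr11:51582818-51586195), also lies at the start site of Phykpl, an enzyme of hydroxylysine breakdown.

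The early acetylation of Col23a1 lay within the gene. Of its 14 merged regions (overlapping peaks of all libraries joined), 2 intronic ones had a peak in all 4 libraries of e11.5 and in none of e15.5. The first (chr11:51388790-51391669) had no peak after e11.5, and the second (chr11:51484109-51486753) had a peak in 1 library of e13.5. Only 2 libraries, the e11.5 lateral nasal plate and the e15.5 library labelled mandibular, had a peak at the start site of Col23a1. The 2 regions hold only part of the early level. Other regions of the gene also had peaks at e11.5 and none later, such as chr11:51541632-51544745, in both nasal plates. The central 300 bases of the interval shared by all peaks are shown for the 2 intronic regions with a peak in all e11.5 and no e15.5 libraries (GRCm38, plus strand, matches to the 7 motifs in capitals).
Col23a1 first intronic region, chr11:51390148-51390447: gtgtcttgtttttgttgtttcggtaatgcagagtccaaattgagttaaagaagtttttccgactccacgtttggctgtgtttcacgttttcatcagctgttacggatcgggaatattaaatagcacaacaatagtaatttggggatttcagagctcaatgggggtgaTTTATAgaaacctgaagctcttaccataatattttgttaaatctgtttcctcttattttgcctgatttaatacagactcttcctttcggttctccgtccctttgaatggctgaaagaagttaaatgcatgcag
Col23a1 second intronic region, chr11:51485201-51485500: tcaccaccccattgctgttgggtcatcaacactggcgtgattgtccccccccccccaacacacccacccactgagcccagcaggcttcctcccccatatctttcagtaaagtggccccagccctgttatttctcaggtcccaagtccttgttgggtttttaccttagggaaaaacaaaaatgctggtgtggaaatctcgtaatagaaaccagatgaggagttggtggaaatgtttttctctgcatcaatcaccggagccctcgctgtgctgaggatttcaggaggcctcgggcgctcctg
The first window is 38% G and C with 8 CpG and holds TATAAA once, on the minus strand, as do 12.6% of 42346 merged regions cut to the same length. The second is 53% G and C with 6 CpG and holds none of the 7 motifs.

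Col13a1 (chr10:61838236-61979108, minus strand), a membrane collagen of cell-matrix contacts and neuromuscular junctions, had 354, 456, 427 and 341 ppm in the e11.5 mandibular, maxillary, medial nasal and lateral nasal libraries. At e13.5 it had 118 in the mandibular, 0 in the maxillary and 138 in the nose library, and at e15.5 it had 179, 88.8 and 18.6 for the mandibular, maxillary and nose labels. The early libraries were all above the later ones, with means of 394 ± 55.6 (SD, n = 4), 85.5 ± 74.7 (SD, n = 3) and 95.3 ± 80.2 (SD, n = 3). Much of the early level was a wide region downstream of the gene (chr10:61821615-61829833), with a peak in all 4 libraries of e11.5, 1 of e13.5 and 1 of e15.5. When only peaks overlapping the gene were kept, the difference between e15.5 and e11.5 was -74.3 ppm in place of -299 and the groups overlapped, and they also overlapped at an equal number of peaks per library. Skeletal muscle markers, relevant to a junction gene, summed to between 0 and 148 ppm, with Myod1 at 0 in all 10 libraries.

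The other membrane collagens were lower. Col17a1, the hemidesmosome collagen of skin, had 22.9 ± 26.5 (SD, n = 4), 103 ± 67.5 (SD, n = 3) and 40.9 ± 36.1 (SD, n = 3) ppm at the 3 stages in order, and these ranges overlapped. The summed level of 5 epithelial markers was 153 to 283 at e11.5, 127 to 560 at e13.5 and 232 to 869 at e15.5. Of these markers only Krt5 was higher in all e15.5 than in all e11.5 libraries. Epcam overlapped, with means of 183 at e11.5 and 161 at e15.5. Cdh1, Krt14 and Trp63 had higher means at e15.5 but overlapped, with 0 in the e15.5 library labelled nose. The part of epithelium in the Col17a1 levels was not tested. Col25a1, a neuronal membrane collagen, ranged from 0 to 120 ppm and had a peak at one of its internal start sites in 6 libraries but none at the 5′ end of the gene.

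Col26a1 (chr5:136741759-136883209, minus strand), a small secreted collagen first described in reproductive tissue, had the highest level of all members in 8 of the 10 libraries, all but the e15.5 libraries with the mandibular and nose labels. Its level at e11.5 was 951 (mandibular), 980 (maxillary), 798 (medial nasal) and 730 (lateral nasal) ppm. At e13.5 it was 933, 688 and 746 in the mandibular, maxillary and nose libraries, and at e15.5 it was 421, 651 and 521 for the mandibular, maxillary and nose labels. The e15.5 libraries were all below the e11.5 libraries and the e13.5 libraries overlapped the latter, with means of 865 ± 120 (SD, n = 4), 789 ± 128 (SD, n = 3) and 531 ± 116 (SD, n = 3). It had 14 merged regions, of which the start-site region (chr5:136879985-136884138) and an intronic one (chr5:136809081-136812947) had a peak in all 10 libraries. Unscaled peak bp or numbers of peaks overlapped between e15.5 and e11.5.

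Col15a1 (chr4:47208161-47313167, plus strand), a proteoglycan collagen of vessel and muscle basement membranes, was higher at e15.5 from a low level. It had no peak in the e11.5 mandibular, maxillary and medial nasal libraries and 20.6 ppm in the lateral nasal plate. It had no peak in the e13.5 mandibular and maxillary libraries and 107 in the e13.5 nose. At e15.5 the levels were 90.8, 75.1 and 33.3 for the mandibular, maxillary and nose labels, all above the e11.5 values, with means of 5.14 ± 10.3 (SD, n = 4) and 66.4 ± 29.7 (SD, n = 3). The groups overlapped at −log10 q of at least 2, at equal yield, with unscaled peak bp and with peaks overlapping the gene only. Its relative Col18a1, the source of endostatin, had 137 ± 104 (SD, n = 4), 35.7 ± 61.8 (SD, n = 3) and 91.3 ± 93.5 (SD, n = 3) ppm at the 3 stages, which overlapped.

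**Figure D2:**
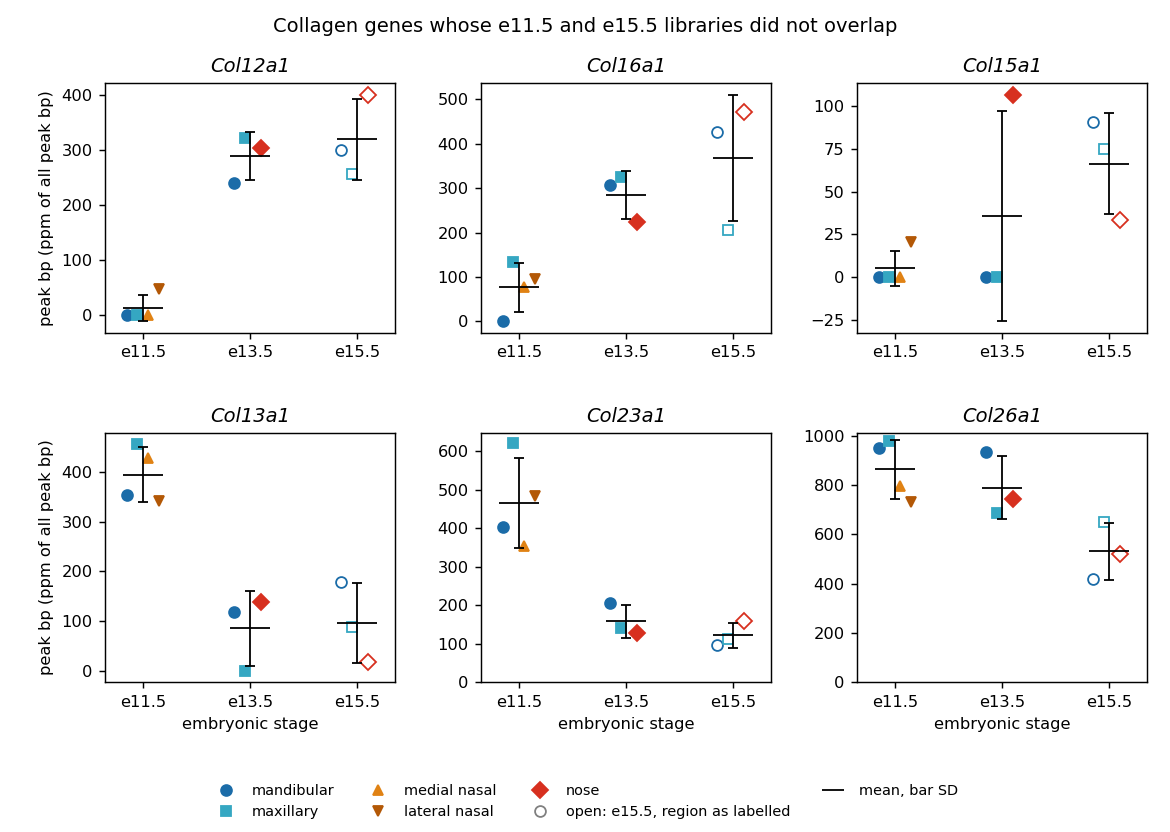
Peak bp in ppm (vertical axis, linear) by stage for the 6 members whose e11.5 and e15.5 libraries did not overlap; each symbol is a library, open symbols are e15.5 libraries with the region as labelled, and the bar gives the mean and SD of the stage. The mean of Col12a1 is 11.9 at e11.5 and 288 at e13.5, Col13a1 and Col23a1 are already low at e13.5, and Col26a1 is low only at e15.5.

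Acetylated start sites were then counted, as peaks within 1 kb of a start site of any transcript. In at least 1 library 24 of 36 members (66.7%) had one, against 56% of all protein-coding genes, and in all 10 libraries 3 of 36 (8.33%), against 13%. These 3 were Col4a1, Col4a2 and Col26a1. By library the count at e11.5 was 3 (mandibular), 4 (maxillary), 10 (medial nasal) and 15 (lateral nasal). It was 7, 9 and 19 in the e13.5 mandibular, maxillary and nose libraries, and 18, 15 and 9 at e15.5 for the mandibular, maxillary and nose labels. As shares, the 4 libraries of e11.5 had 8.33%, 11.1%, 27.8% and 41.7% of members against 24.9%, 20.5%, 42.8% and 43.6% of all genes, each below the share of all genes. The e15.5 libraries had 50%, 41.7% and 25% of members against 46.2%, 41.3% and 23.2% of all genes, each slightly above it. At e13.5 the shares were 19.4%, 25% and 52.8% of members against 24.1%, 41.4% and 51.9%.

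The number of start-site peaks depends on the length of a list, so the strongest 6571 peaks of each library were also compared. At this equal yield 3, 4, 4 and 4 members had a start-site peak in the e11.5 mandibular, maxillary, medial nasal and lateral nasal libraries. There were 7, 5 and 8 in the e13.5 mandibular, maxillary and nose libraries, and 8, 9 and 9 at e15.5 for the mandibular, maxillary and nose labels. The e15.5 counts were all above the e11.5 counts, while the share of all genes was 20.5% to 24.1% at e11.5 and 21.4% to 26.2% at e15.5. For the mandibular, maxillary and nose labels of e15.5 the shares were 22.2%, 25% and 25% of members against 26.2%, 25.1% and 21.4% of all genes. Members were thus above all genes only in the library labelled nose, unlike with all peaks. At equal yield Col4a1, Col4a2 and Col26a1 had such a peak in all 4 libraries of e11.5 and Col16a1 in 3, and no other member had one there. Col12a1 had one in all 3 libraries of e13.5 and of e15.5, Col6a3 in 1 of e13.5 and 3 of e15.5, and Col6a2 in 2 of e15.5. Col26a1 had one in 1 library of e15.5.

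**Figure D3:**
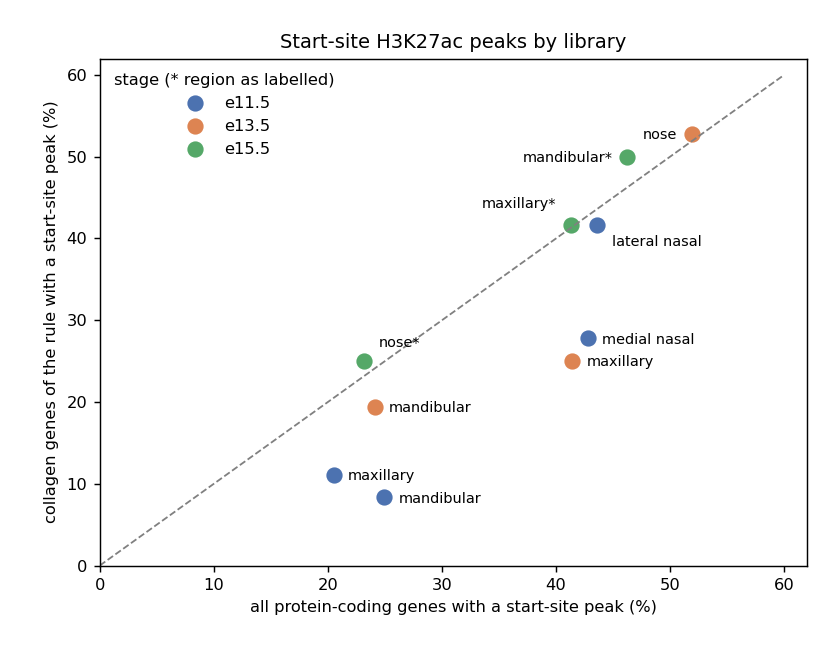
Share of the 36 collagen genes with a start-site peak (vertical axis, %) against that of all protein-coding genes (horizontal axis, %), 1 point per library coloured by stage, with the dashed line at equal shares. The e11.5 points lie below the line, with 8.33% of members against 24.9% of all genes in the mandibular library, and with all peaks, as plotted, the e15.5 points lie just above it.

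The basement membrane genes Col4a1 and Col4a2, the chains of the common type IV network, lie head to head on chromosome 8. Their 5′ ends are 21 bp apart and they share 1 start-site region (chr8:11311161-11315103) with a peak in all 10 libraries, so their peaks are not independent. Col4a1 had 371, 172, 326 and 246 ppm in the e11.5 mandibular, maxillary, medial nasal and lateral nasal libraries, 242, 114 and 399 at e13.5 in the mandibular, maxillary and nose libraries, and 164, 274 and 257 at e15.5 for the mandibular, maxillary and nose labels. In the same orders, Col4a2 had 434, 356, 371 and 376 at e11.5, 329, 114 and 362 at e13.5, and 210, 399 and 163 at e15.5. The stages overlapped for both, with a difference between e15.5 and e11.5 of -47 for Col4a1 and -127 for Col4a2 (exact permutation p = 0.514 and p = 0.143). An intronic region of Col4a2 (chr8:11359944-11365594) had a peak in all 4 libraries of e11.5 and in 2 of each later stage. The other paired type IV genes share the layout but not the level. The 5′ ends of Col4a3 and Col4a4 are 72 bp apart and had no start-site peak, and those of Col4a5 and Col4a6 are 1309 bp apart, with a start-site peak of Col4a5 in 2 libraries. Endothelial markers, genes of a cell type rich in type IV collagen, summed to 390 to 509 ppm at e11.5, 246 to 526 at e13.5 and 322 to 455 at e15.5, with Tek at 0 in 9 of the 10 libraries. Of these markers Cdh5, the cadherin of endothelial junctions, was lower in all e15.5 libraries (138, 110 and 0) than in all e11.5 libraries (201 to 351). Pecam1 had means of 180 at e11.5 and 275 at e15.5 and overlapped. The part of endothelium in the type IV levels was not tested.

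The beaded filament genes Col6a1, Col6a2 and Col6a3, whose products assemble into the common type VI collagen of connective tissue, had peaks in every library. Col6a3 (chr1:90765923-90843971, minus strand) had 573, 379, 109 and 210 ppm in the e11.5 mandibular, maxillary, medial nasal and lateral nasal libraries, 227, 553 and 468 at e13.5 in the mandibular, maxillary and nose libraries, and 574, 402 and 832 at e15.5 for the mandibular, maxillary and nose labels. The stages overlapped, and the difference between e15.5 and e11.5 was 285 (exact permutation p = 0.114). Col6a2 had 261 ± 94.7 (SD, n = 4), 404 ± 69.9 (SD, n = 3) and 435 ± 84.4 (SD, n = 3) ppm at the 3 stages in order, with a slope of 44.6 a day (exact permutation p = 0.0238, adjusted p = 0.517). The start-site peak of Col6a2 was present in 1 library of e11.5, 2 of e13.5 and 3 of e15.5, and that of Col6a3 in 1, 3 and 3. The widest peak at Col6a3, 10996 bp, was in the e15.5 library labelled mandibular, and that at Col6a1, 9344 bp, in the one labelled maxillary. Of the other type VI chains, Col6a6 had between 0 and 98.8 ppm.

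Col6a1 (chr10:76708792-76726168, minus strand) was the only member lower in all nasal libraries than in all jaw libraries of e11.5 and e13.5. It had 324 and 503 ppm in the mandibular and maxillary processes of e11.5 and 407 and 494 in those of e13.5. It had 144 and 188 in the medial and lateral nasal plates and 137 in the e13.5 nose. The nasal mean was 156 ± 27.8 (SD, n = 3) and the jaw mean 432 ± 84.1 (SD, n = 4), with an exact permutation p of 0.0286 and an adjusted p of 0.206 over all genes. At e15.5 the mandibular, maxillary and nose labels had 171, 511 and 363. The low one is the library whose peaks are named for the nose. In the nasal comparison 1 of 30 members (3.33%) was lower, against 15.3% of all genes, and the count was 2 without the e11.5 maxillary library, 2 without the e13.5 maxillary library and 3 without the e13.5 nose. With only peaks that overlap the gene, Col6a1 overlapped between the groups. It also overlapped when peak bp were not scaled to the library, with 5133, 6331 and 6777 bp in the nasal and 5024, 5284, 5777 and 10509 bp in the jaw libraries. Unscaled, 0.0404% of all genes were lower in the nasal libraries, against 15.3% with scaling. At equal yield Col6a1 stayed apart, with a difference of -315 ppm, where 3.09% of all genes were lower. The part of list length in the level of Col6a1 was not tested.

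The Col6a1 and Col6a2 locus and the Col6a3 locus each held a region that differed between the e11.5 and e15.5 libraries. Regions with a peak in all e11.5 and no e15.5 libraries were 1.58% of member regions, against 0.463% of all regions. For a peak in all e15.5 and no e11.5 libraries the shares were 0.526% and 0.638%. Between Col6a1 and Col6a2 a region (chr10:76671000-76673386) had a peak in all 4 libraries of e11.5, 2 of e13.5 and none of e15.5. It was assigned to Col6a1 by its nearest start site, an internal one 45850 bp away. By 5′ ends Col6a2 (chr10:76623630) lies closer to it than Col6a1 (chr10:76726168), so its gene is uncertain. Downstream of Col6a3 a region (chr1:90753088-90755542) had a peak in no library of e11.5, 2 of e13.5 and all 3 of e15.5. They are shown as the early and the late example at genes of 1 protein, again as the central 300 bases of the shared interval on the plus strand of GRCm38, with motif matches in capitals.
Col6a1 early region, chr10:76672055-76672354: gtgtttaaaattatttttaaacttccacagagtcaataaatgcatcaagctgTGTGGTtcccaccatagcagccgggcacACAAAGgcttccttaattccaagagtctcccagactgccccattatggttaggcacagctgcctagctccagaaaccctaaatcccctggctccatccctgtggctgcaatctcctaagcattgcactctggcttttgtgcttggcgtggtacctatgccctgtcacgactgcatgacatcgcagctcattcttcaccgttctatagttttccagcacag
Col6a3 late region, chr1:90754220-90754519: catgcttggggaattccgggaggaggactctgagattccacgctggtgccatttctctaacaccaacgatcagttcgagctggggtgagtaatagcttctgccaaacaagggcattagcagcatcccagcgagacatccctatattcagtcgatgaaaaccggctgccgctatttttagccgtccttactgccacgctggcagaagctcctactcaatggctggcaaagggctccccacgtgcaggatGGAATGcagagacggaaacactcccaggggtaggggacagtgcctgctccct
The early window is 48.7% G and C with 5 CpG and holds TGTGGT and ACAAAG once each, not overlapping. The late window is 55% G and C with 12 CpG and holds GGAATG once. Of all merged regions cut to the same length, 18.7% hold TGTGGT, 25.5% hold ACAAAG and 17% hold GGAATG, so these matches are common.

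The next comparison was between the 3 nasal libraries (both nasal plates of e11.5 and the nose of e13.5) and the 4 jaw libraries (the mandibular and maxillary processes of both stages). Col8a1, Col8a2, Col14a1 and Col28a1 were higher in all nasal than in all jaw libraries. This is 4 of 30 members (13.3%), against 9.33% of all genes with a peak. The median difference between nasal and jaw was 33.5 ppm over the members and 3.32 over all genes. The nasal lists were longer, with 20492 to 25941 peaks, than the jaw lists, with 6571 to 10753. At an equal number of peaks per library none of these 4 stayed apart. The 1 member higher in the nasal libraries was then Col5a3, against 1.18% of all genes. Without the e11.5 mandibular library 8 members were higher, against 11.4%. By limma on log2(ppm + 1), 4 of 30 members passed after adjustment over all genes, against 11.4% of 14283 genes. They were Col14a1, Col8a1 and Col28a1, higher in the nasal libraries, and Col6a1, lower. With the stage as a block 3 members passed, against 10.7%, and Col28a1 went from an adjusted p of 0.0439 to 0.0574 in limma.

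Col28a1 (chr6:7997808-8192617, minus strand), a collagen of glia around peripheral nerves, had 185 and 165 ppm in the medial and lateral nasal plates and 114 in the e13.5 nose. It had 32.9 in the e11.5 mandibular library and no peak in the other jaw libraries or in any e15.5 library. The nasal mean was 155 ± 36.8 (SD, n = 3) against 8.23 ± 16.5 (SD, n = 4) in the jaw, with an exact permutation p of 0.0286 and an adjusted p of 0.206. At equal yield Col28a1 had no peak in any library, so the groups could not be compared. Its start-site peaks, in both nasal plates, lay at internal start sites and none at the 5′ end of the gene.

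The short-chain collagens Col8a1 and Col8a2 form networks under endothelium and in the cornea. Col8a2 (chr4:126286793-126314330, plus strand) had 342, 275 and 362 ppm in the medial nasal, lateral nasal and e13.5 nose libraries. In the jaw it had 257 (mandibular) and 191 (maxillary) at e11.5, and 235 (mandibular) and 0 (maxillary) at e13.5. The nasal mean was 326 ± 45.9 (SD, n = 3) and the jaw mean 171 ± 117 (SD, n = 4), with an exact permutation p of 0.0571. At e15.5 it had 409 in the library labelled mandibular, 103 in the one labelled maxillary and 0 in the one labelled nose. A region in the 3′ part of the gene (chr4:126309721-126316252) had a peak in 8 libraries, more than any other region of Col8a2, and just reaches the 3′ end of the neighbouring gene Adprhl2. A start-site peak of Col8a2 was present in 4 libraries, the 3 nasal ones and the e15.5 library labelled mandibular. At equal yield the nasal and jaw values of Col8a2 overlapped, with a mean difference of 35.4 ppm in place of 156. Col8a1 (chr16:57624258-57754737, minus strand) had no peak in any jaw library, 19.8 and 45.8 ppm in the medial and lateral nasal plates, 216 in the e13.5 nose and 102 in the e15.5 library labelled mandibular. At equal yield Col8a1 had no peak in any library. The related Col10a1 had no peak.

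Col14a1 (chr15:55307750-55520803, plus strand), a fibril-associated collagen that limits fibril growth in tendon and skin, was also absent from the jaw lists of e11.5 and e13.5. It had 66.7 and 33.4 ppm in the medial and lateral nasal plates and 149 in the e13.5 nose. At e15.5 the mandibular, maxillary and nose labels had 140, 20.2 and 17.7. All nasal values thus exceeded the jaw values of 0, and Col14a1 had the same exact permutation p as Col28a1. The separation was lost at equal yield, where Col14a1 had no peak in any library, with only peaks that overlap the gene, and at a distance of 20 kb.

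With all peaks, a further group of members was high in just 2 libraries, the e13.5 nose and the e15.5 library labelled mandibular, whose peaks are named for the nose. These 2 libraries had the longest lists of their stages, with 25941 and 19817 peaks. Col9a3 and Col9a2 encode chains of type IX collagen, which coats the type II fibrils of cartilage. Col9a3 had 179 ppm in the first of these, 277 in the second, 7.48 in the medial nasal plate and no peak elsewhere. Col11a2, a minor fibrillar chain of cartilage, had 87.4 and 114 in the same 2 libraries and no peak in the other 8. Its only region (chr17:34037168-34041857) also lies within 1 kb of a start site of Rxrb. The peak there cannot be given to Col11a2 alone. Col27a1, a fibrillar chain of cartilage, was present in all 10 libraries, with 391 and 330 in these 2 libraries and between 89.8 and 232 in the others. Col9a2 was less restricted, with 57 to 103 in the 6 libraries that had it. At equal yield Col9a3 had 87.8 and 233 ppm and Col9a2 222 and 201 in the same 2 libraries, and neither had a peak elsewhere. Col11a2 then had no peak in any library. Col27a1 then had 157 in the e13.5 nose, 0 in the e15.5 library labelled mandibular and its highest level, 273, in the e11.5 mandibular library.

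Some genes of cartilage were high in the same libraries. The summed level of the 5 markers Sox9, Acan, Matn1, Comp and Hapln1 was 395 ppm in the e13.5 nose and 558 in the e15.5 library labelled mandibular, and between 0 and 357 in the others. Acan, the main cartilage proteoglycan, had 96 and 229 in these libraries, and Hapln1, its link protein, 137 and 156. Comp had a peak only in the e15.5 library labelled mandibular (6.75). Sox9, the regulator of cartilage formation, and Matn1, a cartilage matrix protein, were highest elsewhere, in the e11.5 medial nasal plate. There Sox9 had 186 and Matn1 48.4, against 130 and 31.7 in the e13.5 nose and 148 and 18.3 in the e15.5 library labelled mandibular. Of the collagens outside the set, Col2a1 had 234 and 509 in the same libraries but 667 in the e11.5 mandibular library, and Col9a1 had 78.6 and 295. The part of cartilage in the levels of Col9a3, Col11a2 and Col27a1 was not tested. Of the 114 merged regions of members in the e13.5 nose, 54.4% were also in the e15.5 library labelled mandibular, which is 84.9% of its own 73. Of the same 114, 38.6% were in the library labelled maxillary (69.8% of its 63) and 14.9% in the one labelled nose (65.4% of its 26). Over all merged regions the shares of the e13.5 nose were 61.8%, 50.7% and 22.9%. As shares of each e15.5 library's own regions they were 81.5%, 80.5% and 76.9%, close to each other.

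**Figure D4:**
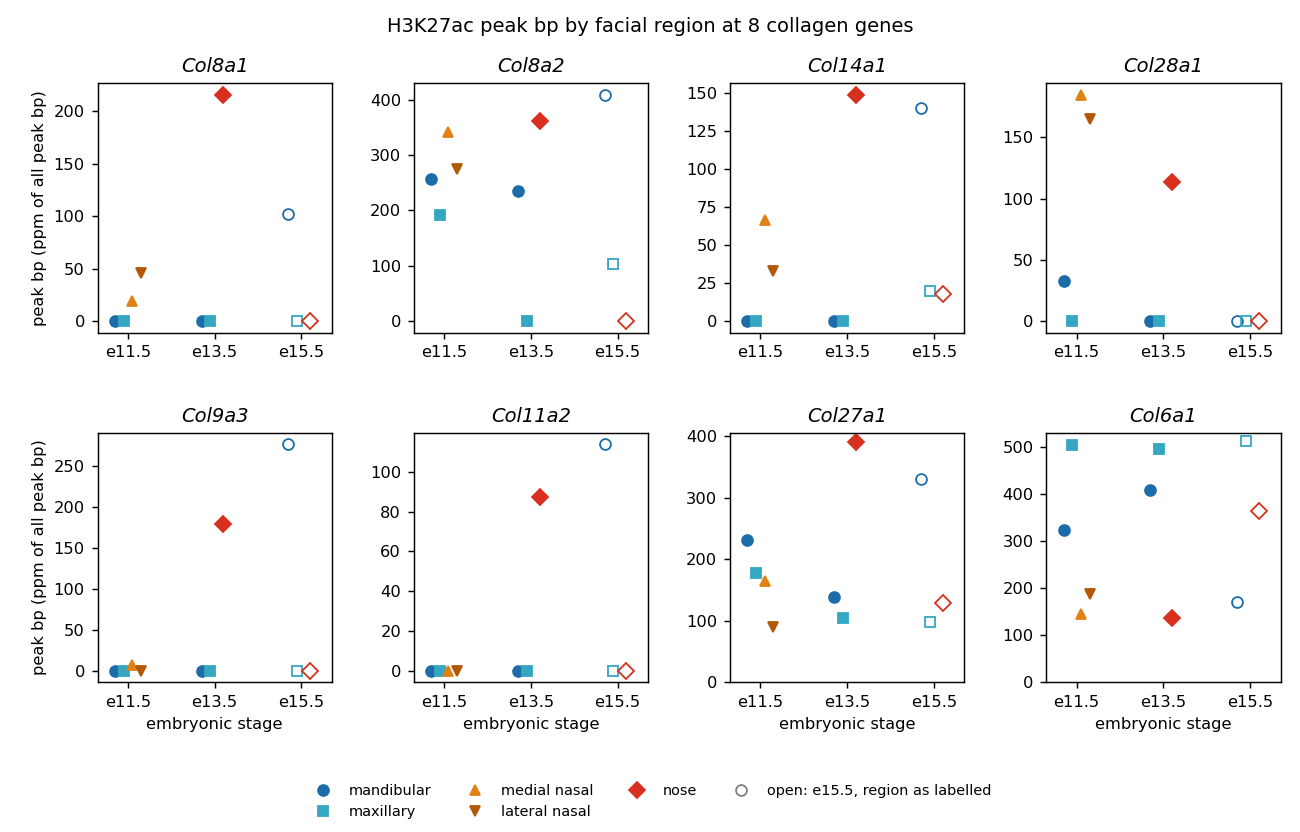
Peak bp in ppm (vertical axis, linear) by stage for 8 members discussed by region; each symbol is a library, blue symbols are jaw and orange to red symbols nasal, and open symbols are e15.5 libraries with the region as labelled. Col8a1, Col14a1 and Col28a1 have nasal values above the jaw values, Col9a3 and Col11a2 are high in the e13.5 nose and in the e15.5 library labelled mandibular, and Col6a1 is low in the nasal libraries (137 to 188).

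Of the other minor fibrillar chains, Col24a1 and Col5a3 overlapped between stages, and between nasal and jaw libraries when all peaks were used. Col24a1, a fibrillar chain of developing bone, had 105, 101 and 111 ppm in the e15.5 libraries, a narrow range of 106 ± 5.29 (SD, n = 3). Its e11.5 values of 0, 0, 39.1 and 196 in the mandibular, maxillary, medial nasal and lateral nasal libraries lay on both sides of that range. Its start-site peak was in the lateral nasal plate, the e13.5 nose and the e15.5 libraries labelled mandibular and maxillary. Col5a3, a type V chain, had 48.8 ± 33.8 (SD, n = 4), 23.6 ± 40.9 (SD, n = 3) and 79.4 ± 68.8 (SD, n = 3) at the 3 stages in order and no start-site peak in any library. At equal yield Col5a3 had 134, 128 and 155 ppm in the medial nasal, lateral nasal and e13.5 nose libraries. The jaw then had 91.6 in the e11.5 mandibular library and 0 in the others, so that the groups did not overlap. With all peaks the nasal values were 60.5, 57.1 and 70.9 and the e11.5 mandibular library had 77.8.

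Peaks of the members merged into 190 regions across libraries, 6 of them shared by 2 members. Of these, 82 (43.2%) lay in introns, 28 (14.7%) covered exon and intron, 33 (17.4%) lay within 1 kb of a start site, 29 (15.3%) upstream and 18 (9.47%) downstream of the gene. A peak in a single library was the rule for 85 of them (44.7%), as for 44.5% of all 42346 merged regions. Regions with a peak in all e11.5 and no e15.5 libraries made up 3 of 190 (1.58%), against 0.463% of all regions, and were the Col23a1 introns and the Col6a1 region shown above. Regions with a peak in all e15.5 and no e11.5 libraries were 1 of 190 (0.526%), against 0.638%, the Col6a3 region. A peak in all 10 libraries was found for 6 regions (3.16%), against 6.69%. These were the shared Col4a1 and Col4a2 start, the Col26a1 start and intron, the 3′ end of Col23a1 at the start of Phykpl, and 1 region each at Col6a1 and Col6a3. The last 2 reach the start site of their gene, but a peak within 1 kb of it was present in 3 libraries for Col6a1 and in 7 for Col6a3. The interval that all peaks of the Col6a1 region share (chr10:76732105-76734205) lies upstream of the gene, and the peaks of the Col6a3 region share none.

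Genes that make, process and bind collagen chains were counted in the same way. Of 18 genes for folding and modification, 1 was higher in all e15.5 than in all e11.5 libraries and 0 were lower. This was P3h1, a prolyl 3-hydroxylase, with a mean of 18.5 at e11.5 and 138 ppm at e15.5. Of 14 genes for secretion, processing and crosslinking, 1 was higher and 0 lower. It was Lox, lysyl oxidase, with 19.1 and 197. Of 10 collagen receptor genes none was apart in either direction. Of 16 partners of type IV collagen in basement membranes, 1 was higher and 2 lower. The laminin chain Lama4 had 86.5 at e11.5 and 334 at e15.5, while the laminin chain Lamb1 had 177 and 59.3 and the nidogen Nid2 had 177 and 80.3. These counts stand beside 4.66% of all genes higher and 3.32% lower. In the nasal comparison, 8 of the 18 folding and modification genes were lower in the nasal than in the jaw libraries and 2 higher. One of the 8 was the collagen chaperone Serpinh1, with 307, 323 and 218 ppm in the nasal and 487 to 812 in the jaw libraries. These levels are scaled to lists that covered 33.6 to 49.4 Mb in the nasal and 10.5 to 21.3 Mb in the jaw libraries. Without scaling, the peak bp of Serpinh1 were not lower in the nasal libraries. Of the secretion genes 3 were higher and 0 lower, of the receptors 0 and 2, and of the basement membrane partners 4 and 0. Over all genes 15.3% were lower and 9.33% higher there, and 0.0404% were lower with unscaled peak bp. Of the 8 collagens left out by the rule, Col1a1 and Col5a1 were higher at e15.5 and Col1a1, Col1a2, Col3a1 and Col5a2 were lower in the nasal libraries.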

How the data were processed

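H3K27ac ChIP-seq peaks of 10 mouse face libraries were analysed; 10 input samples were left out. BWA 0.7.7, SAMtools 0.1.19, MACS2 2.2.4 and build mm10 are listed in the submitters' processing notes; settings for these libraries were not given in the sources used here. The deposited broad peak lists, 1 per library, hold positions and the authors' score, fold enrichment ratio, −log10 p-value and −log10 q-value for each peak, at least 1.3 for q. These were computed within each list and served only to filter or rank peaks. Autosomes, X and Y held 144852 of 144896 peaks, and only these were used. All fell within GRCm38.

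Peaks were assigned to GENCODE vM21 protein-coding genes (minimum overlap 1 bp) and summed for each 1000000 bp of peaks in a library (ppm). Slopes over day were tested by exact permutation (4200 assignments) and adjusted by Benjamini-Hochberg over 14860 genes with a threshold of 0.05. Group differences used 35 assignments. A gene was called higher or lower where groups did not overlap. Libraries of a stage are different regions, so p-values between stages are set against the spread between regions. The nasal and jaw groups each pool e11.5 and e13.5, so the spread behind their exact permutation p-values also includes stage. Values in every library are given for members whose groups did not overlap, the leading member of each class and members with a start-site peak throughout; others, and those high in the e13.5 nose, were chosen after their values were seen. Members, lists and tests were chosen with earlier results of these data known. Procedures were tested on simulated data. Alternatives included −log10 q of at least 2, equal yield, unscaled bp, peak numbers per 10000 peaks, gene overlap only, 20 kb, a 2.5 kb window, limma 3.58.1 (R 4.3.3; pseudocount 1; with and without a block of region or stage), and leaving out each library. Computation used Python 3.11.15, numpy 2.4.6 and pandas 2.3.3. Sequences came from RefSeq (GRCm38).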

Additional observations from a re-analysis of the deposited data

Results flagged for a closer look

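In 24 groups of 4 libraries of e11.5 (16 members and 8 class sums), a library stood apart from the others in 3 by the size of its gap to the nearest value. In every case it was the lateral nasal plate, the longest list of e11.5. Col12a1 (47.6 ppm) and Col15a1 (20.6) were present at e11.5 only there, and with the other 3 libraries at 0 any value would stand apart, so these gaps test nothing. The summed level of Col26a1, Col28a1 and Col7a1 was 895 in the lateral nasal plate, below the 980 to 983 of the other e11.5 libraries; chance alone flags about 1 in 20 groups without such ties. Col27a1 went in opposite directions from e11.5 to e13.5. Its mean changed by -83.5 in the jaw libraries and by 264 in the nasal libraries, with every later jaw library below every earlier one and the nose above both nasal plates, a difference between regions of -347. That difference was not tested, and its nasal part rests on the e13.5 nose, the longest list. At equal yield Col27a1 had 141 and 139 ppm in the medial and lateral nasal plates and 157 in the e13.5 nose. The mandibular and maxillary libraries then had 273 and 178 at e11.5 and 142 and 0 at e13.5.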

How the results depend on the processing

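Of the 6 members apart between e15.5 and e11.5, Col12a1 and Col23a1 stayed apart in all 15 alternatives, Col16a1 and Col26a1 in 13, Col15a1 in 11 and Col13a1 in 10. None reversed. Alternatives that only leave out libraries cannot make groups that are apart overlap, so they could not fail. The losses, 5 for Col13a1, 4 for Col15a1 and 2 each for Col16a1 and Col26a1, all fell among the other alternatives. Of the 5 apart between nasal and jaw libraries, Col28a1, Col6a1 and Col8a1 stayed apart in 12 of 15, and Col8a2 and Col14a1 in 11. Here too, leaving out a library could not undo a separation. It also could not lower the counts of members apart given below. The cause of each loss was not tested. Members higher at e15.5 numbered 8 with only the 4 libraries over 16000 peaks (chosen after seeing the data; 21.8% of all genes), and 3 to 7 when a library was left out. Members lower at e15.5 numbered 5 at −log10 q of at least 2, 1 with unscaled bp and 1 with peak numbers, and 3 to 4 with a library left out. Members higher in nasal libraries numbered 1 at equal yield, 11 with unscaled bp, 0 with e15.5 included by label, and 4 to 8 with a library left out. Members lower there numbered 0 with unscaled bp, 2 with peak numbers, 0 with gene overlap only, 0 with e15.5 by label, and 1 to 3 with a library left out. The trend called 0 genes in all its alternatives. The difference of the fibril-associated sum was 744, and 577 to 907 with a library left out. That of the transmembrane sum was -597, and -637 to -544 with a library left out, -11345 bp unscaled and -2.68 peaks per 10000, the last 2 overlapping. Start-site peaks in at least 1 library were found for 24 members, and for 23 to 24 with a library left out. In every library they were found for 3 members, 3 to 4 with a library left out, and 0 at −log10 q of at least 2. The labels pair no embryos, but stages share regions. In limma with the region of the label (mandibular, maxillary or nasal) as a block, added after the data were seen, the trend called 0 genes (smallest adjusted p 0.142), with 7 members and 1523 genes at an unadjusted p under 0.05. With stage as a block, limma called 3 members and 1534 genes between nasal and jaw libraries, against 4 and 1631 without. Depth is unknown, so absent peaks in the 4 shortest lists limit every count of presence.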
